A study of Mus musculus with 12 samples.

Results

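The *Otx2* CKO retina was followed from postnatal day 1 (P1) to postnatal day 12 (P12) with 6 of the 12 arrays of the study, the 3 titled as *Otx2* CKO at P12 against the 3 titled as *Otx2* CKO at P1. Every array carried total RNA of whole mouse retina, read as a linear signal intensity for each probe set. *Otx2* CKO mice were otx2 flox/flox; Crx-Cre+, so that Cre under the *Crx* promoter, which is active in young photoreceptors, excises *Otx2*. The other 6 arrays, 3 at P1 and 3 at P12, were from control mice, otx2 flox/flox; Crx-Cre-, which have the same floxed gene and no Cre. They enter only where the change from P1 to P12 in the *Otx2* CKO retina is set against the change in the control retina. Groups were taken from the sample titles, which match the source names and the genotype field, although a few free-text descriptions give the opposite genotype. The 3 samples of a group are numbered as independent experiments, and whether each was 1 animal or a pool is not given in the sources used here, so that p values measure the spread between these RNA samples.

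Otx2 is a homeodomain transcription factor that young retinal cells need to become rods or cones, and later to become bipolar cells. Without it in photoreceptor precursors, cells of this lineage take on features of amacrine cells. The first 2 postnatal weeks are the period in which the mouse retina stops dividing, makes its last rods, bipolar cells and Müller glia, forms its synapses and grows its vessels. The comparison asks which of these steps can be read in the RNA of a retina whose photoreceptor precursors lose *Otx2*.

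The arrays of the 2 ages differed in brightness before any scaling. The 2% trimmed mean signal was 21.8 to 27.9 on the P1 *Otx2* CKO arrays and 108 to 172 on the P12 arrays. The cre hybridization control was also brighter at P12 (5630.1 to 8655 against 1818 to 2810.4), whereas the bioB control was dimmer (3.53 to 6.43 against 29.9 to 52.3), and the control mice showed the same opposite shifts (cre 2809.5 to 2979.7 at P1 and 5219 to 6135 at P12, bioB 42.7 to 53.7 and 1.60 to 5.40). Age and whatever changed these added controls cannot be told apart in the *Otx2* CKO arrays. The 6 arrays were therefore quantile normalized together, and each change below is relative to the distribution of all signals on an array. Scaling to the hybridization controls (bioB, bioC, bioD and cre, called spike scaling) would move the median log2 change of all probe sets to 1.44 and no scaling would move it to 1.85, from −0.03. The 3′ to 5′ signal ratio of actin, a measure of RNA integrity, was 1.35 to 1.58 at P1 and 1.28 to 1.47 at P12. Correlations of log2 signals between arrays of 1 age were 0.914 to 0.968 at P1 and 0.847 to 0.939 at P12. All p values are from limma with Benjamini-Hochberg adjustment over every probe set tested, changes are differences of log2(signal + 16), and the offset of 16 makes them smaller than the true ratio for dim genes.

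*Otx2* signal fell further between the ages in the *Otx2* CKO retina. It was 406, 363 and 458 on the P1 arrays and 106, 125 and 74.2 on the P12 arrays, with no overlap (log2 change −1.87, SE 0.24, adjusted p = 0.000589). In the control retina its change was −0.19, and the change in the *Otx2* CKO retina was lower than that by 1.70 (adjusted p = 0.0106). The fall was relative to the other transcripts, since scaling to the hybridization controls gave a log2 change of −0.28 (adjusted p = 0.233) and the signals as deposited gave 0.27 (adjusted p = 0.404). Where the probe set lies relative to the excised part of the gene is not given in the sources used here.

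Of 18044 probe sets with a mean signal of at least 50 at P1 or P12, 2319 (12.9%) were higher and 2041 (11.3%) lower at P12 in the *Otx2* CKO retina. Counted as genes, with the brightest probe set of each, 9723 were tested, of which 1430 (14.7%) rose and 1082 (11.1%) fell. The median log2 change of all genes tested was −0.00178. Without 1 of the 6 arrays the probe sets higher at P12 numbered 1384 (without P12 *Otx2* CKO replicate 3) to 2280 and those lower 1112 (without P1 *Otx2* CKO replicate 3) to 2080. Leaving out P1 *Otx2* CKO replicate 2 gave 1355 lower, and P12 *Otx2* CKO replicate 3 gave 1285 lower, each over 1.5 times below the count with all arrays. Leaving out P1 *Otx2* CKO replicate 3 gave 1406 higher. In 33 gene lists that hold 513 genes, 463 genes had a named probe set and 325 were tested. In RNA of a whole tissue, fewer cells of a type and less RNA per cell cannot be told apart, which holds for every list. A gene that reached 50 at 1 age only could pass in 1 direction only, so that the counts of a list describe the genes tested. Changes in the *Otx2* CKO retina are from the fit of 6 arrays, while control changes and differences are from the fit of 12 arrays, so that they need not subtract exactly.

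**Figure D1:**
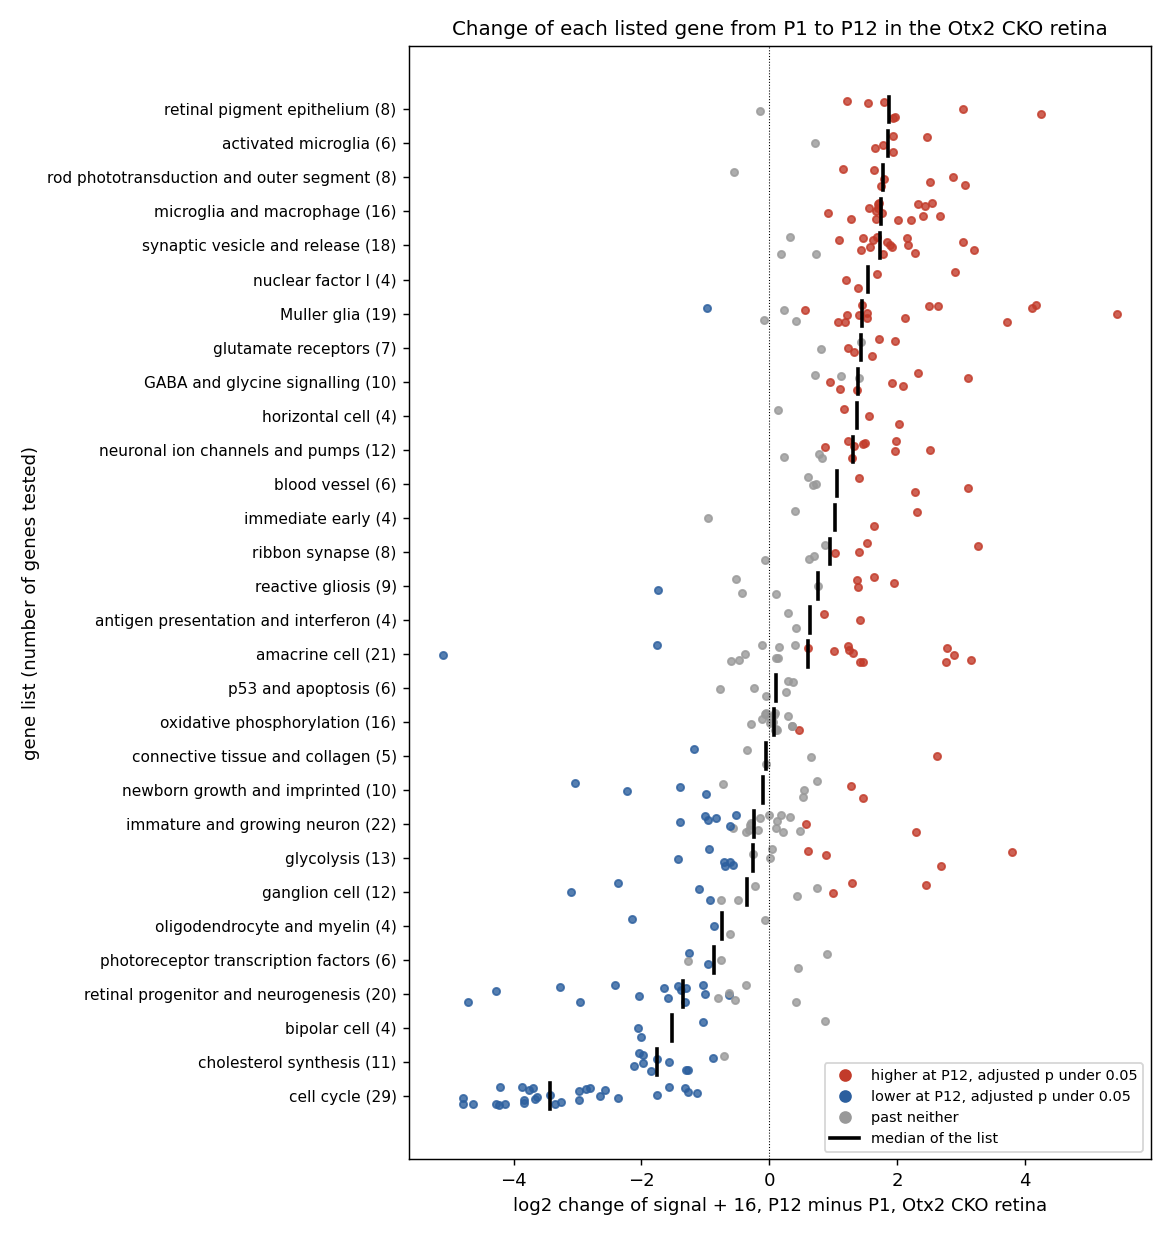
Each point is the log2 change of 1 listed gene from P1 to P12 in the *Otx2* CKO retina (x axis, log2 of signal + 16) and each row is a gene list with the number of genes tested in parentheses, for lists with at least 4. Red and blue points passed an adjusted p of 0.05, grey points did not, and the black bar is the median of the list, which runs from −3.44 for cell cycle genes to 1.87 for pigment epithelium genes.

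Genes that dividing cells need fell between P1 and P12. All 29 cell cycle genes with a named probe set were tested and all 29 fell, with a median log2 change of −3.44 and a range from −4.79 to −1.14. Of the 29, 22 were tested only through P1 and could pass only as lower. *Top2a*, the topoisomerase that untangles chromosomes before division, had signals of 1202, 601 and 728 at P1 and 12.5, 12.7 and 16.2 at P12 (log2 change −4.79, SE 0.27, adjusted p = 1.01e-05). *Cdc20*, an activator of the anaphase-promoting complex, went from 827, 1342 and 1161 to 18.6, 31.3 and 23.3 (log2 change −4.79, SE 0.25, adjusted p = 8.24e-06). *Ube2c*, the ubiquitin-conjugating enzyme of that complex, went from 573, 1031 and 771 to 10.9, 18.1 and 18.4, a log2 change of −4.64. In each of these genes the dimmest P1 array was over the brightest P12 array by more than an order of magnitude.

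The S phase genes fell to different levels. *Rrm2*, a subunit of ribonucleotide reductase, went from 843, 794 and 860.0 to 22.6, 42.4 and 21.7 (log2 change −4.27, SE 0.24, adjusted p = 1.01e-05). *Pcna*, the clamp of the replicative polymerase, kept signals of 666, 874 and 776 at P12 after 2837, 2550.0 and 2487 at P1 (log2 change −1.75, SE 0.14, adjusted p = 4.43e-05). The minichromosome maintenance gene *Mcm7* kept 610.4, 636 and 597 after 1902, 1895 and 1777 (log2 change −1.57, SE 0.13, adjusted p = 5.97e-05), while *Mcm2* to *Mcm6* had log2 changes of −2.57 to −3.44. The G1 cyclin *Ccnd1* went from 3219, 3052 and 2678 to 136, 149 and 179 (log2 change −4.14, SE 0.18, adjusted p = 5.33e-06). Of the 28 cell cycle genes that could be tested against the control retina, all 28 fell there too, where 18.5% of all genes fell. *Mcm7* was the 1 whose difference between genotypes passed, 1.52 (adjusted p = 0.00199), with P12 signals of 570.3, 596 and 558 in the *Otx2* CKO and 143, 233 and 216 in the control arrays, on the scale of all 12 arrays normalized together, as are all signals of control arrays given here. Under spike scaling 24 and without scaling 21 of the cell cycle genes still passed as lower.

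The promoters of the *Top2a*, *Ube2c* and *Cdc20* genes are shown because these genes fell together and carry the letters CCAAT and TTTGAA, the first a box bound by the factor NF-Y and the second the cell cycle genes homology region (CHR), which is bound by the MuvB complexes that repress such genes in cells that do not divide. Sequences are the 250 bases before the RefSeq gene start in GRCm38.p6, 5′ to 3′ on the strand of the gene, with CCAAT and TTTGAA in capitals on either strand (ATTGG and TTCAAA on the other one). 1 pair of CCAAT matches overlaps in *Ube2c*.
Top2a (chr11:99024190-99024439, minus strand): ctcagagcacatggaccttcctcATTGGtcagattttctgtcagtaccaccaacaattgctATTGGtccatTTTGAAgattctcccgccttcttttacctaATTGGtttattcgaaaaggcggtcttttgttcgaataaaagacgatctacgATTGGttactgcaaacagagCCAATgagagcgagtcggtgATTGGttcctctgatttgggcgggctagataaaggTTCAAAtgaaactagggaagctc
Ube2c (chr2:164769679-164769928, plus strand): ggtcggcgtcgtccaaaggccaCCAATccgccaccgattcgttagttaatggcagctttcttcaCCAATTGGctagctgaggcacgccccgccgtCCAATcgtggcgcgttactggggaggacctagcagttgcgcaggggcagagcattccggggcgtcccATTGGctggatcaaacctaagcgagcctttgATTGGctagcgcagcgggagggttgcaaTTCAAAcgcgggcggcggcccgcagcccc
Cdc20 (chr4:118437344-118437593, minus strand): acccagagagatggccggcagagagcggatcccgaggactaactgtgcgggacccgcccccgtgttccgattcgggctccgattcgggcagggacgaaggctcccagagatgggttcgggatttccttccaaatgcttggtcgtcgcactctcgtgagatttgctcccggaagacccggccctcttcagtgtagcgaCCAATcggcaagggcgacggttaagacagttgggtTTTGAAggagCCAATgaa
CCAAT was found in 18 of 23 cell cycle promoters with a RefSeq window (78.3%) and in 34.5% of the promoters of all 27025 genes. TTTGAA was found in 8 of 23 (34.8%) against 16.3%, and both together in 34.8% against 5.73%. TTTGAA was also found in 28.6% of bipolar promoters and CCAAT in 57.1% of bipolar and 60% of cone promoters. These shares describe the letters and no binding was measured.

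Retinal progenitor genes fell as well, though less completely. Of 20 tested, 15 fell and none rose, with a median of −1.35, and without P1 *Otx2* CKO replicate 2 the number was 12. *Fgf15*, a growth factor made by progenitors, went from 394, 729.8 and 514 to 5.68, 3.83 and 5.05 (log2 change −4.71, SE 0.25, adjusted p = 9.74e-06). The chromatin protein gene *Hmgb2* went from 1493, 1504 and 1525 to 47.7, 85.1 and 59.4 (log2 change −4.28, SE 0.22, adjusted p = 8.24e-06). *Foxn4*, which primes progenitors for amacrine and horizontal fates, went from 221, 298 and 213 to 18.9, 5.3 and 9.37, a log2 change of −3.27. *Sox2*, which both progenitors and Müller glia express, stayed at 364, 455 and 443 after 908, 876 and 852 (log2 change −1.04, SE 0.17, adjusted p = 0.0025). *Notch1*, the receptor that holds cells in the progenitor state, fell by 1.43 in the *Otx2* CKO retina and by 2.58 in the control retina, and the difference of 1.11 passed (adjusted p = 0.0206) but was lost in 6 of the 12 fits that left out 1 array, with an adjusted p of up to 0.0697 without P1 control replicate 3. The proneural gene *Neurog2* also fell less than in the control retina (difference 1.33, adjusted p = 0.0489), and that call was lost in 10 such fits, with up to 0.137. Under spike scaling 6 progenitor genes were lower and 8 higher, and as deposited 4 and 12.

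*Ptf1a*, the transcription factor that commits cells to amacrine and horizontal fates, had the largest fall of all genes whose arrays did not overlap, from 655, 675 and 987 to 2.62, 8.32 and 9.28 (log2 change −5.10, SE 0.25, adjusted p = 5.83e-06). *Uhrf1*, a maintenance factor of DNA methylation, went from 441, 585 and 518 to 2.07, 3.0 and 5.55, a log2 change of −4.76. *Pbk*, a mitotic kinase, *Arhgap11a* and *Cdca3*, a cell division gene, had log2 changes of −4.70, −4.56 and −4.41. Each of these 5 genes fell in the control retina too, by 3.84 for *Ptf1a* and 4.38 to 5.06 for the other 4, and none of the differences passed (adjusted p of 0.141 for *Ptf1a* and 0.538 to 0.998 for the others).

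Müller glia, the radial glia that span the retina and are born last with rods and bipolar cells, were represented by 19 genes, all of them tested. Of these 15 rose and 1 fell, with a median log2 change of 1.45, and 12 to 15 rose under median, trimmed mean and log2 quantile scaling, 18 under spike scaling and 19 as deposited. Of the 19, 4 were tested only through P12. *Abca8a*, a membrane transporter, had the largest rise of all genes whose arrays did not overlap, from 7.37, 6.55 and 9.52 to 1471, 694 and 1028 (log2 change 5.44, SE 0.28, adjusted p = 8.24e-06). *Clu*, which encodes the secreted chaperone clusterin, went from 63.3, 70.5 and 68.4 to 1076, 1801 and 1737 (log2 change 4.18, SE 0.24, adjusted p = 1.01e-05). The water channel gene *Aqp4* went from 5.87, 0.517 and 1.58 to 249, 164 and 288 (log2 change 3.72, SE 0.26, adjusted p = 2.23e-05). For none of these 3 did the difference from the control retina pass, with 0.66, −0.01 and 0.85 (adjusted p of 0.622, 0.996 and 0.396).

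Genes by which Müller glia support neurons rose from different P1 levels. *Glul*, glutamine synthetase, had 1293, 1443 and 1439.7 at P1 and 2848, 3381 and 2713 at P12 (log2 change 1.09, SE 0.12, adjusted p = 0.000291). *Rlbp1*, the retinaldehyde binding protein of the visual cycle, went from 359.8, 252 and 365 to 1968, 2071 and 1643 (log2 change 2.50, SE 0.19, adjusted p = 3.59e-05), and *Slc1a3*, the glutamate transporter GLAST, from 289, 273 and 259 to 712, 601 and 611 (log2 change 1.18, SE 0.19, adjusted p = 0.00185). The potassium channel gene *Kcnj10* had 109, 141 and 159 at P12 after 34.4, 40.9 and 32.7 (log2 change 1.54, SE 0.22, adjusted p = 0.00114). *Sox9*, which progenitors share, was the member that fell (−0.98, adjusted p = 0.033), a call that held in 1 of the 6 fits without 1 array. *Vim*, the intermediate filament vimentin, had a change of −0.08 (adjusted p = 0.79).

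*Apoe*, the lipid carrier apolipoprotein E that Müller glia and microglia make, rose more without *Otx2* than in the control retina. Its P1 signals were 174, 203 and 212 in the *Otx2* CKO and 287, 240.4 and 224 in the control arrays, and its P12 signals were 3325, 3929 and 4417 and 983, 1032 and 1271, all normalized over 12 arrays. At P12 the genotypes did not overlap. Microglia genes also rose in the *Otx2* CKO retina, and their part in the rise of *Apoe* was not tested. The log2 change in the *Otx2* CKO retina was 4.11 over 6 arrays (SE 0.16, adjusted p = 5.33e-06). Over 12 arrays it was 4.2 in the *Otx2* CKO and 2.06 in the control retina, a difference of 2.14 (adjusted p = 0.000161). *Dkk3*, the other member with a difference, had 0.23 against −0.65 (adjusted p = 0.0216), lost in 4 of 12 fits without 1 array, with up to 0.0683 without P1 control replicate 2. Over all 9964 genes tested, 149 (1.5%) had a higher change in the *Otx2* CKO than in the control retina and 341 (3.42%) a lower one.

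Of 9 tested genes of reactive gliosis, which injured retinas switch on, 4 rose and 1 fell. Of the 9, 4 were tested only through P12 and could pass only as higher. Another 1 was tested only through P1 and could pass only as lower. *Gfap*, the glial filament protein, went from 23.1, 45.9 and 45.8 to 121, 143 and 106 (log2 change 1.38, SE 0.25, adjusted p = 0.00414). Its change in the control retina was 1.30, and the difference of the changes did not pass (adjusted p = 0.972). Its levels did not overlap between the genotypes at either age. Over 12 arrays they were 21.1, 41.7 and 41.7 in the *Otx2* CKO and 10.3, 9.33 and 11.7 in the control arrays at P1. At P12 they were 110, 130 and 96.0 in the *Otx2* CKO and 75.2, 58.7 and 24.4 in the control arrays. *Stat3*, a transcription factor of cytokine signaling, went from 71, 119.8 and 117 to 440.1, 466 and 399.6 (log2 change 1.96, SE 0.24, adjusted p = 0.000488). Without P12 *Otx2* CKO replicate 3 the rises numbered 2, and *Edn2*, *Fgf2* and *Lcn2*, which damaged photoreceptors or glia induce, stayed at 0.75 to 14.2 on all 6 arrays.

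**Figure D2:**
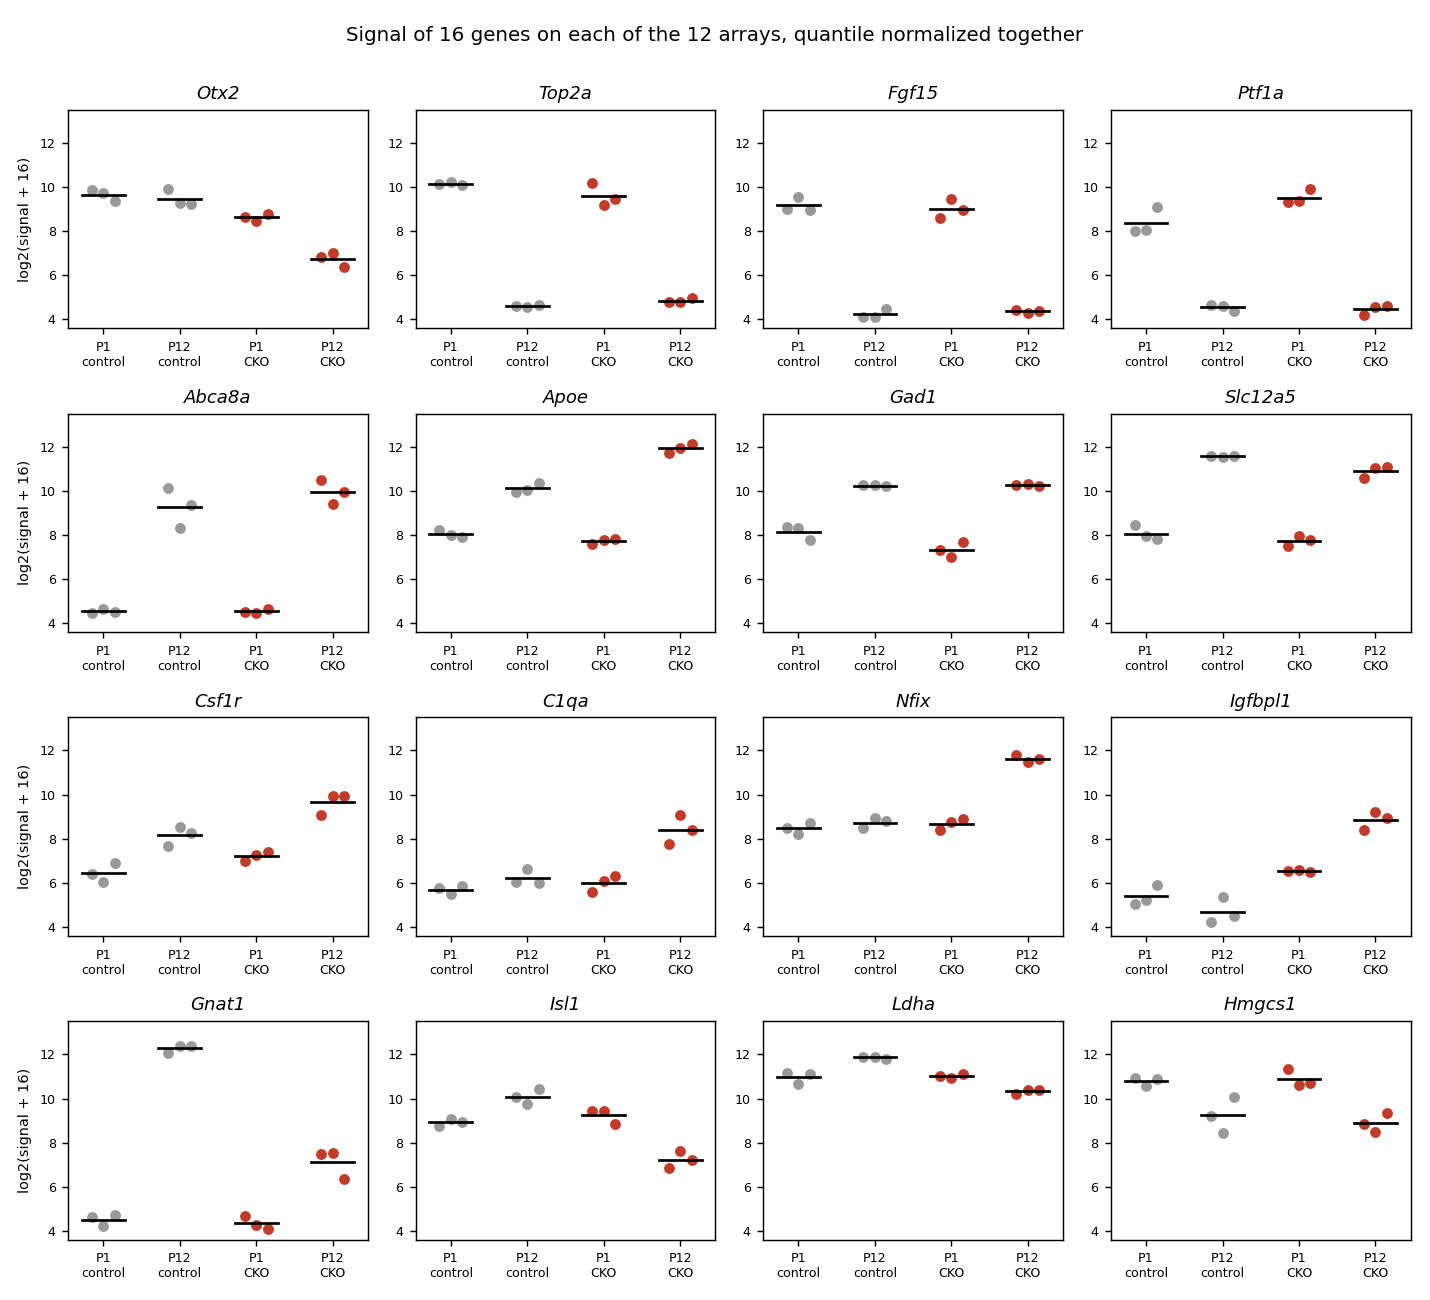
Log2(signal + 16) of 16 genes on each of the 12 arrays, normalized together (y axis), by age and genotype (x axis, 3 arrays each, bars at the mean). *Top2a*, *Fgf15* and *Ptf1a* are low at P12 in both genotypes, *Nfix* and *Igfbpl1* are highest in the P12 *Otx2* CKO arrays, and *Gnat1* is far higher at P12 in the control arrays.

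Genes of the release machinery of synapses rose. Of 18 tested genes of synaptic vesicles and release 15 rose and none fell, with a median log2 change of 1.74, and 13 or more rose without any 1 array. *Synpr*, the vesicle protein synaptoporin, went from 125, 73.9 and 102 to 1464, 826 and 927 (log2 change 3.21, SE 0.27, adjusted p = 5.9e-05). *Sv2b* went from 60.8, 44.3 and 58.1 to 645, 554 and 491 (log2 change 3.04, SE 0.22, adjusted p = 2.65e-05), and *Syp*, synaptophysin, from 162, 173 and 179.7 to 642, 788 and 666 (log2 change 1.93, SE 0.19, adjusted p = 0.000157). The SNARE gene *Vamp2* had 1299.5, 993 and 819.9 at P12 after 191, 222 and 228 at P1 (log2 change 2.17, SE 0.22, adjusted p = 0.000147). The control retina had 13 of 17 higher at P12 with a median of 1.77, and none of the 17 differences between genotypes passed. Over all genes tested only 1.5% had a higher and 3.42% a lower change, so that none of 17 is near that share. The same holds for the short lists below in which no difference passed.

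Genes of inhibitory transmission, by which amacrine and horizontal cells signal, rose too. *Slc12a5*, the chloride exporter KCC2 that makes GABA inhibitory, went from 177, 249 and 219 to 1561, 2154 and 2290.0 (log2 change 3.12, SE 0.21, adjusted p = 1.83e-05), and its change in the control retina was 3.50. The glycine receptor subunit gene *Glrb* went from 57.8, 25.9 and 54.6 to 318, 245 and 298 (log2 change 2.32, SE 0.27, adjusted p = 0.000337). In total, 7 of 10 tested genes of GABA and glycine signalling rose and none fell, with a median of 1.39, and 5 of the 10 were tested only through P12. *Glra2*, the α subunit of early glycine receptors, rose in the *Otx2* CKO retina from 70.6, 22.8 and 69.1 to 349.5, 184 and 194 (log2 change 1.92, SE 0.36, adjusted p = 0.00482) and changed by −0.11 in the control retina, and the difference of 2.0 (adjusted p = 0.0293) was lost in 6 of 12 fits without 1 array, with up to 0.0854 without P1 control replicate 3. *Abat*, GABA transaminase, had a difference of 1.08 (adjusted p = 0.046) that was lost in 10 of them.

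Of 21 amacrine cell genes tested, 11 rose and 2 fell, with a median of 0.61. The largest rises were in genes that make or move transmitters or encode peptides. *Gad1*, glutamate decarboxylase, went from 158, 123 and 207 to 1275, 1309 and 1256 (log2 change 2.89, SE 0.22, adjusted p = 2.89e-05). *Slc6a9*, the glycine transporter of glycinergic amacrine cells, went from 110.0, 82.3 and 128 to 939.8, 720.0 and 814 (log2 change 2.79, SE 0.23, adjusted p = 4.36e-05), and *Slc32a1*, the vesicular inhibitory transporter, from 56.8, 63.6 and 99.4 to 473, 667 and 606 (log2 change 2.76, SE 0.25, adjusted p = 8.81e-05). The neuropeptide gene *Vip* went from 1.5, 8.38 and 1.58 to 165, 162 and 148 (log2 change 3.15, SE 0.23, adjusted p = 2.85e-05). The 2 that fell encode transcription factors, *Ptf1a* and *Lhx9*, the latter from 201, 204 and 251 to 37.5, 64.4 and 59.7 (log2 change −1.76, SE 0.24, adjusted p = 0.000787).

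The other 8 amacrine cell genes tested did not pass. *Gad2*, the second glutamate decarboxylase, had 271, 84.8 and 132 at P1 and 329, 96 and 132 at P12 (log2 change 0.14, SE 0.47, adjusted p = 0.86). The transcription factor gene *Pax6* had 1979.7, 1688 and 1764 at P1 and 1973, 1734 and 2141 at P12, and the ages overlapped (log2 change 0.10, SE 0.13, adjusted p = 0.589). In the control retina *Pax6* fell, from 1466, 1547 and 1640.2 to 789, 572 and 892, a log2 change of −1.05, and the difference of 1.15 passed (adjusted p = 0.00913). It was the 1 amacrine gene of 21 whose difference passed. *Tfap2a* and *Tfap2b*, AP-2 factors of amacrine cells, had changes of −0.47 and 0.40 (adjusted p of 0.162 and 0.364). Relative to the hybridization controls 19 amacrine genes passed as higher.

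Receptors, channels and pumps of neurons rose in the same interval. *Atp1b1*, a subunit of the sodium pump, went from 206, 258 and 312 to 1188, 1839 and 1653 (log2 change 2.52, SE 0.23, adjusted p = 7.88e-05). *Kcnc1*, a potassium channel of fast-spiking cells, went from 34.9, 51.5 and 39.5 to 167, 243 and 233 (log2 change 1.98, SE 0.23, adjusted p = 0.000378). Of 12 tested channels and pumps 9 rose, 6 without P1 *Otx2* CKO replicate 3, and of 7 glutamate receptor genes, 5 of which were tested only through P12, 5 rose. The glutamate receptor count was less firm, at 2 without P12 *Otx2* CKO replicate 1 and 3 without P12 *Otx2* CKO replicate 3 or P1 *Otx2* CKO replicate 2. *Gria4*, an AMPA receptor subunit, shows the spread, with 183, 84.6 and 118 at P1 and 1127, 260.5 and 502 at P12 (log2 change 1.98, SE 0.47, adjusted p = 0.0137, lost without P1 *Otx2* CKO replicate 2). Neither list held a difference from the control retina that passed.

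Horizontal and ganglion cells gave short lists. *Prox1*, needed by horizontal cells, went from 78.7, 33.6 and 54.3 to 408, 147 and 311 (log2 change 2.03, SE 0.37, adjusted p = 0.00418). *Calb1*, calbindin of horizontal and some amacrine cells, went from 25.9, 22.4 and 24.2 to 79.4, 124 and 108 (log2 change 1.56, SE 0.23, adjusted p = 0.00128) but rose more in the control retina, to 324, 224 and 329.8, with a difference of −1.42 (adjusted p = 0.0129). In total, 3 of 4 tested horizontal cell genes rose, whereas *Lhx1* and *Onecut1*, which define these cells, stayed at or under 11.1 on all 6 arrays and were not tested. Their control means at P1 and P12 were also below 50, at 26.45 and 39.55 for *Lhx1* and 6.57 and 7.49 for *Onecut1*. *Onecut1* was thus dim in both genotypes, and the genotypes were not compared for either gene. Of 12 ganglion cell genes 3 rose and 4 fell, and the falls numbered 2 without P1 *Otx2* CKO replicate 2 or P12 *Otx2* CKO replicate 3. *Atoh7*, which makes progenitors competent for the ganglion cell fate, went from 251, 404 and 213 to 14.1, 28.9 and 14 (log2 change −3.10, SE 0.29, adjusted p = 9.18e-05) and *Pou4f1*, a factor of differentiated ganglion cells, from 804, 447 and 453 to 102, 95.8 and 81.8 (log2 change −2.37, SE 0.27, adjusted p = 0.000291). *Nefh*, the heavy neurofilament of long axons, rose from 22, 24.6 and 11.9 to 151, 224 and 162 (log2 change 2.46, SE 0.25, adjusted p = 0.000157). No ganglion cell gene differed from the control retina past the threshold, which is near the share of all genes (1.5% higher and 3.42% lower).

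Rod genes rose in the *Otx2* CKO retina, from low signals to moderate ones. Of 22 rod genes with a named probe set only 8 reached a mean of 50 at either age and were tested, 7 of which rose. Of the 8, 6 were tested only through P12 and could pass only as higher. *Gnat1*, rod transducin, went from 10.5, 3.6 and 0.8 to 176, 187 and 73.5 (log2 change 2.88, SE 0.35, adjusted p = 0.000431). *Rcvrn*, the calcium sensor recoverin, went from 14.7, 7.92 and 8.78 to 121, 194 and 102 (log2 change 2.51, SE 0.27, adjusted p = 0.000232), and *Pde6g*, the inhibitory subunit of the rod phosphodiesterase, from 18.9, 22.4 and 18 to 113, 161 and 69.3 (log2 change 1.80, SE 0.28, adjusted p = 0.00186). *Sag*, rod arrestin, was at 38.8, 20.6 and 57.4 and then 356, 669 and 323 (log2 change 3.07, SE 0.34, adjusted p = 0.000277). In each of the 7 genes the P12 signal was lowest on replicate 3.

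The control retina reached far higher levels. On the scale of all 12 arrays *Gnat1* was at 8.63, 2.57 and 10.1 in the P1 and 4199, 5391 and 5312 in the P12 control arrays, a log2 change of 7.76, and its change without *Otx2* was lower by 4.97 (adjusted p = 4.9e-05). *Rcvrn* reached 4116, 3929 and 4372 and *Pde6g* 4304, 5251 and 4228 in the P12 control arrays, with differences of −3.50 and −3.84 (adjusted p of 6.91e-05 and 7.31e-05). Over 12 arrays 19 rod genes were tested, 18 of which rose in the control retina and 15 of which had a lower change without *Otx2*. In all genes tested 20.3% rose in the control retina and 3.42% had a lower change without *Otx2*. The counts of rod genes follow in part from the signal limit, since 11 of the 19 reached 50 only in control arrays, 10 of them only at P12. *Pde6b*, *Slc24a1*, *Cnga1* and *Guca1b*, which encode the rod phosphodiesterase β subunit, the sodium calcium exchanger, the rod channel and a guanylate cyclase activator, had differences of −4.42, −4.77, −4.16 and −4.35.

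*Sag* was 1 of the 4 rod genes whose difference did not pass. It rose by 3.07 without *Otx2* and by 3.77 in the control retina, and the difference of −0.71 did not pass (adjusted p = 0.435). Its levels did not overlap between the genotypes at either age, with P12 signals of 329.8, 628 and 298 in the *Otx2* CKO and 6071, 6071 and 6399 in the control arrays and P1 signals of 35.3, 18.9 and 52.2 and 516, 401 and 409.7. Its promoter is shown as that of a rod gene with the letters TAATCC, the core to which Otx2 and its relative Crx bind, here in capitals on the other strand (GGATTA).
Sag (chr1:87803430-87803679, plus strand): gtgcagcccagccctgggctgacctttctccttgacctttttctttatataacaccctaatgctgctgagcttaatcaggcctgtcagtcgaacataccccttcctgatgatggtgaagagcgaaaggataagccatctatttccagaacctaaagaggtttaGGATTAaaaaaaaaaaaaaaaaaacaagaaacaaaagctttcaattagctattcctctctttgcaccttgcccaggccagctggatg
TAATCC was found in 7 of 15 rod promoters with such a window (46.7%), in 5 of 14 bipolar promoters (35.7%), in none of 23 cell cycle promoters and in 6.38% of all. Among the rod genes it was found in *Abca4*, *Cnga1*, *Cngb1*, *Gngt1*, *Guca1a*, *Gucy2e* and *Sag*. The windows of *Pde6b* and *Slc24a1*, rod genes with large differences, held no TAATCC. It was also found in 20% of cone, 18.2% of Müller glia, 12.5% of synaptic vesicle and 6.67% of microglia promoters. None of the cholesterol synthesis or immature neuron promoters held it. No binding was measured.

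Of the cone genes and photoreceptor transcription factors none passed as higher without *Otx2*, except under spike scaling, where 2 and 5 did, and as deposited, where 4 and 5 did. Of 9 cone genes with a named probe set 2 were tested, *Opn1sw*, the short-wave opsin, with 57.8, 14 and 38.4 at P1 and 48.1, 109 and 55.3 at P12 (log2 change 0.75, SE 0.37, adjusted p = 0.177), and *Gnb3*, a transducin β subunit (log2 change 0.49, SE 0.33, adjusted p = 0.323). In both the ages overlapped. *Opn1mw*, the middle-wave opsin, had a mean below 50 at both ages in the *Otx2* CKO and reached 424, 753 and 460.1 in the P12 control arrays (difference −4.41, adjusted p = 6.38e-05). *Crx*, the factor that drives photoreceptor genes together with Otx2, was at 64.1, 15.7 and 60.6 at P1 and 28.6, 66.3 and 28.6 at P12 and was not tested, its mean being below 50 at both ages. *Nrl*, the rod determinant, had 65, 19.8 and 85.8 at P1 and 126, 132 and 76.7 at P12 (log2 change 0.91, SE 0.38, adjusted p = 0.113), while the control arrays went from 857, 609 and 595 to 4326, 4881 and 4417 (difference −1.83, adjusted p = 0.0438). *Prdm1*, which keeps photoreceptor precursors from the bipolar fate, fell from 88, 42.9 and 82.4 to 22.6, 19.7 and 16.6 (log2 change −1.25, SE 0.27, adjusted p = 0.00984) and fell by 1.60 in the control retina. *Rxrg*, a retinoid receptor of cones, was the other of 6 tested factors that fell, and the falls numbered 1 without P1 *Otx2* CKO replicate 3 or P12 *Otx2* CKO replicate 1 and 0 under spike scaling.

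Bipolar cells are the interneurons that carry photoreceptor signals inward, and they mature in the second week. Of 18 bipolar genes with a named probe set 4 were tested and 3 fell, none of them under spike scaling. Over 12 arrays a larger set was tested. Of these 13 of 15 rose in the control retina, against 20.3% of all genes, and 11 had a lower change without *Otx2*, against 3.42%. Of the 15, 11 reached 50 only in the P12 control arrays, so that these 2 counts follow largely from the signal limit. *Isl1*, a factor of ON bipolar, amacrine and ganglion cells, moved in opposite directions in the genotypes. In the *Otx2* CKO retina it fell from 729, 728 and 473 to 108, 197 and 144 (log2 change −2.0, SE 0.27, adjusted p = 0.000835), and in the control retina it rose from 414, 524 and 475 to 1063, 847 and 1367 (log2 change 1.16). The difference was −3.19 (adjusted p = 0.00018). Scaling to the hybridization controls gave −0.41 (adjusted p = 0.186) and no scaling 0.16 in the *Otx2* CKO retina, so that its fall is relative to the other transcripts. *Pcp2*, *Cabp5* and *Gabrr1*, of rod or cone bipolar cells, were at 39.6, 68.4 and 26.8, at 12.6, 17.8 and 4.75 and at 13.4, 5.97 and 3.22 in the P12 *Otx2* CKO arrays and at 1874, 2206 and 1964, at 507, 525 and 585 and at 219.9, 482 and 374 in the P12 control arrays. *Irx6* fell too, by 1.04 (adjusted p = 0.0215), a call lost without P1 *Otx2* CKO replicate 2 or 3 or P12 *Otx2* CKO replicate 3 and turned to 0.32 by spike scaling. Its difference from the control retina, −1.29, did not pass (adjusted p = 0.115). *Irx5*, the other that fell, had log2 changes of −2.05 in the *Otx2* CKO and −1.88 in the control retina. That difference did not pass either (−0.18, adjusted p = 0.891).

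The ribbon synapse is shared by photoreceptors and bipolar cells. Of 15 genes 8 were tested and 4 rose, among them *Cplx3*, a complexin that amacrine cells also use, from 98.2, 72.9 and 101 to 914, 1070.1 and 1043 (log2 change 3.27, SE 0.21, adjusted p = 1.26e-05), *Syt1*, the vesicle calcium sensor (1.53), and *Bsn*, the active zone scaffold bassoon (1.41). In 7 of the 15 the change was lower than in the control retina, against 3.42% of all genes. Of the 15, 7 reached 50 only in control arrays. *Slc17a7*, the vesicular glutamate transporter of photoreceptors and bipolar cells, was at 7.62, 12.5 and 7.57 and 17.6, 26 and 14.9 in the *Otx2* CKO arrays and reached 1138, 1001 and 727 in the P12 control arrays (difference −4.81, adjusted p = 1.88e-05). *Mpp4* and *Cplx4*, of photoreceptor terminals, had differences of −4.02 and −3.64. *Cplx3* had a change of 2.72 in the control retina and its difference of 0.60 did not pass (adjusted p = 0.295).

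Other genes with large lower changes than in the control retina were *Drd4*, the dopamine receptor of photoreceptors (−4.90), *Rdh12*, a retinol dehydrogenase of photoreceptor inner segments (−4.60), and *Plpp2*, a lipid phosphatase (−4.27). *Drd4* was at 24, 83.7 and 43.4 in the P12 *Otx2* CKO and at 1092, 1243 and 2127 in the P12 control arrays.

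**Figure D3:**
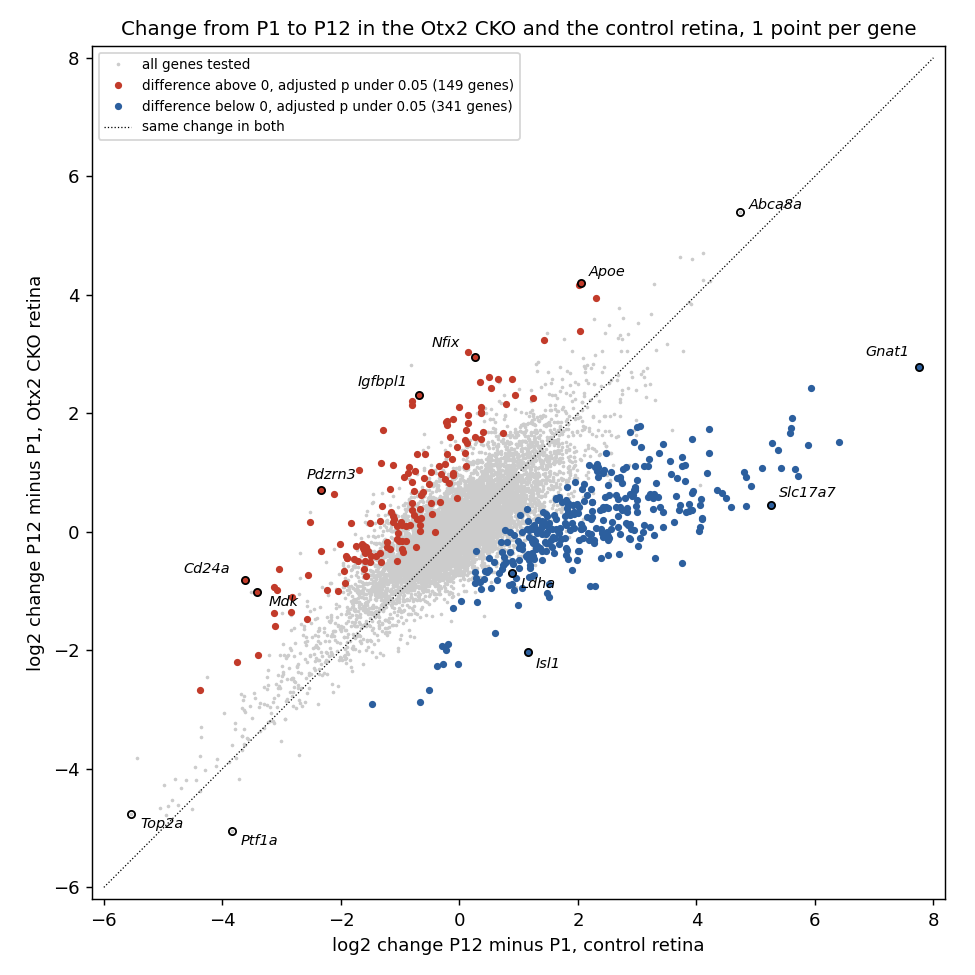
Log2 change from P1 to P12 in the control (x axis) and in the *Otx2* CKO retina (y axis) of each of 9964 genes tested over all 12 arrays, with the dotted line at equal change. The 341 blue genes, *Gnat1* and *Slc17a7* among them, lie below the line, and the 149 red genes, *Nfix*, *Igfbpl1* and *Cd24a* among them, lie above the line.

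Genes of immature and growing neurons fell less in the *Otx2* CKO retina. In the control retina 17 of 22 fell from P1 to P12, with a median of −1.30. In the *Otx2* CKO retina 6 fell and 2 rose, with a median of −0.23, while spike scaling gave 0 lower and 18 higher. Without any 1 of the P1 *Otx2* CKO arrays 3 fell. In 8 of the 22 the change was higher than in the control retina, against 1.5% of all genes, and in none lower. The list was chosen with earlier results of these data known. The paper had listed *Cd24a*, *Igfbpl1*, *Sox11* and *Dcx* as up-regulated at P12 from the same arrays. The count therefore describes the list and is no independent support. *Cd24a*, a surface protein of young neurons, had 2688, 2266 and 2131 in the *Otx2* CKO and 2082, 2176 and 2353 in the control arrays at P1. At P12 it had 1377, 1267 and 1332 in the *Otx2* CKO arrays and 175, 150.2 and 167 in the control arrays, which do not overlap (difference 2.80, adjusted p = 1.88e-05).

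*Igfbpl1*, a secreted protein of newborn neurons, rose without *Otx2* from 77.7, 80.0 and 73.5 to 316, 584 and 475, while the control arrays had 16.5, 20.9 and 44.9 at P1 and 2.63, 25.3 and 6.96 at P12 (difference 2.99, adjusted p = 0.00208). *Marcksl1*, of growing neurites, had 2387, 2908 and 2449 against 686, 1189 and 817 at P12 (difference 1.51, adjusted p = 0.00208). *Sox4*, which young neurons need, had 4077, 3299.9 and 4054 against 1446, 1137 and 2100.4 (difference 1.33, adjusted p = 0.0109). *Tubb3*, the neuronal β tubulin, and *Gap43*, of growth cones, fell in the *Otx2* CKO retina, by 1.40 and by 0.96, and spike scaling turned these to 0.12 and 0.60. Their differences from the control retina did not pass (adjusted p of 0.461 and 0.202), nor did that of the doublecortin gene *Dcx* (2.87, adjusted p = 0.0521), whose P12 signals of 789.6, 175 and 392 spread widely.

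Of 10 growth genes of newborn tissue, 2 had a higher change than in the control retina, against 1.5% of all genes. *Mdk*, the growth factor midkine, had 381, 541 and 550.1 in the *Otx2* CKO and 65, 129 and 102 in the control arrays at P12 (difference 2.40, adjusted p = 0.000879). *Ptn*, its relative pleiotrophin, rose from 482, 295 and 472 to 1453, 929 and 775 in the *Otx2* CKO retina (log2 change 1.29, SE 0.27, adjusted p = 0.00851) and had a change of −0.71 in the control retina (difference 2.03, adjusted p = 0.00593). *Igf2bp1* and *Igf2bp3*, mRNA binding proteins of fetal tissue, fell in the *Otx2* CKO retina by 3.04 and by 2.23, with differences of −0.27 and 0.08 (adjusted p of 0.796 and 0.959). In total, 2 of the 10 rose and 4 fell (1 and 6 in the control retina, and 1 fell under spike scaling), and without P12 *Otx2* CKO replicate 2 the rises numbered 4.

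The nuclear factor I genes, transcription factors of late progenitors, Müller glia, bipolar and amacrine cells, rose without *Otx2*. All 4 were tested and all 4 rose, but 1 rose without P12 *Otx2* CKO replicate 3 and 2 without P1 *Otx2* CKO replicate 2 or replicate 3. *Nfix* passed in each of the 6 fits without 1 array. It went from 346, 447 and 487 to 3688, 2934 and 3258 (log2 change 2.91, SE 0.17, adjusted p = 1.01e-05), while the control arrays had 348, 278 and 404 at P1 and 343, 469 and 427 at P12 (log2 change 0.26). The difference was 2.70 (adjusted p = 9.47e-05). *Nfib* went from 231, 95.5 and 146 to 1143, 204 and 576 in the *Otx2* CKO retina, where replicate 2 was lowest at both ages and the ages overlapped (log2 change 1.69, SE 0.53, adjusted p = 0.0451), and from 182, 147 and 159 to 97.9, 24.3 and 67.1 in the control retina. Its difference of 3.01 (adjusted p = 0.043) was lost in 9 of 12 fits without 1 array, with up to 0.119 without P1 *Otx2* CKO replicate 2.

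Among genes outside the lists with higher changes than in the control retina, *Pdzrn3*, a ubiquitin ligase of cell junctions, had 517, 443 and 519.5 in the *Otx2* CKO and 25.6, 47.1 and 46.7 in the control arrays at P12, after 302, 292 and 288 and 270.0, 277 and 234 at P1 (difference 3.04, adjusted p = 5.41e-05). *Grik3*, a kainate receptor subunit, rose from 22.9, 16.6 and 26.5 to 173, 195 and 117 and went from 111, 82.5 and 50.8 to 26.5, 59.4 and 34 in the control arrays (difference 3.0, adjusted p = 0.000803). *Lgr5*, a receptor for R-spondins, rose from 16, 8.38 and 10.6 to 701, 404 and 432 in the *Otx2* CKO retina (log2 change 4.22, SE 0.26, adjusted p = 1.1e-05) and to 120.3, 84.6 and 107 in the control retina (difference 2.14, adjusted p = 0.00214). *Rag1*, known as the recombinase of lymphocytes, was at 103, 74.4 and 113 in the P12 *Otx2* CKO arrays and at or under 21.7 on the other 9 arrays (difference 2.93, adjusted p = 8.24e-05). *Car3*, a carbonic anhydrase, rose from 32.8, 43.4 and 27.5 to 287, 414 and 509 (difference 2.88, adjusted p = 0.00143).

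**Figure D4:**
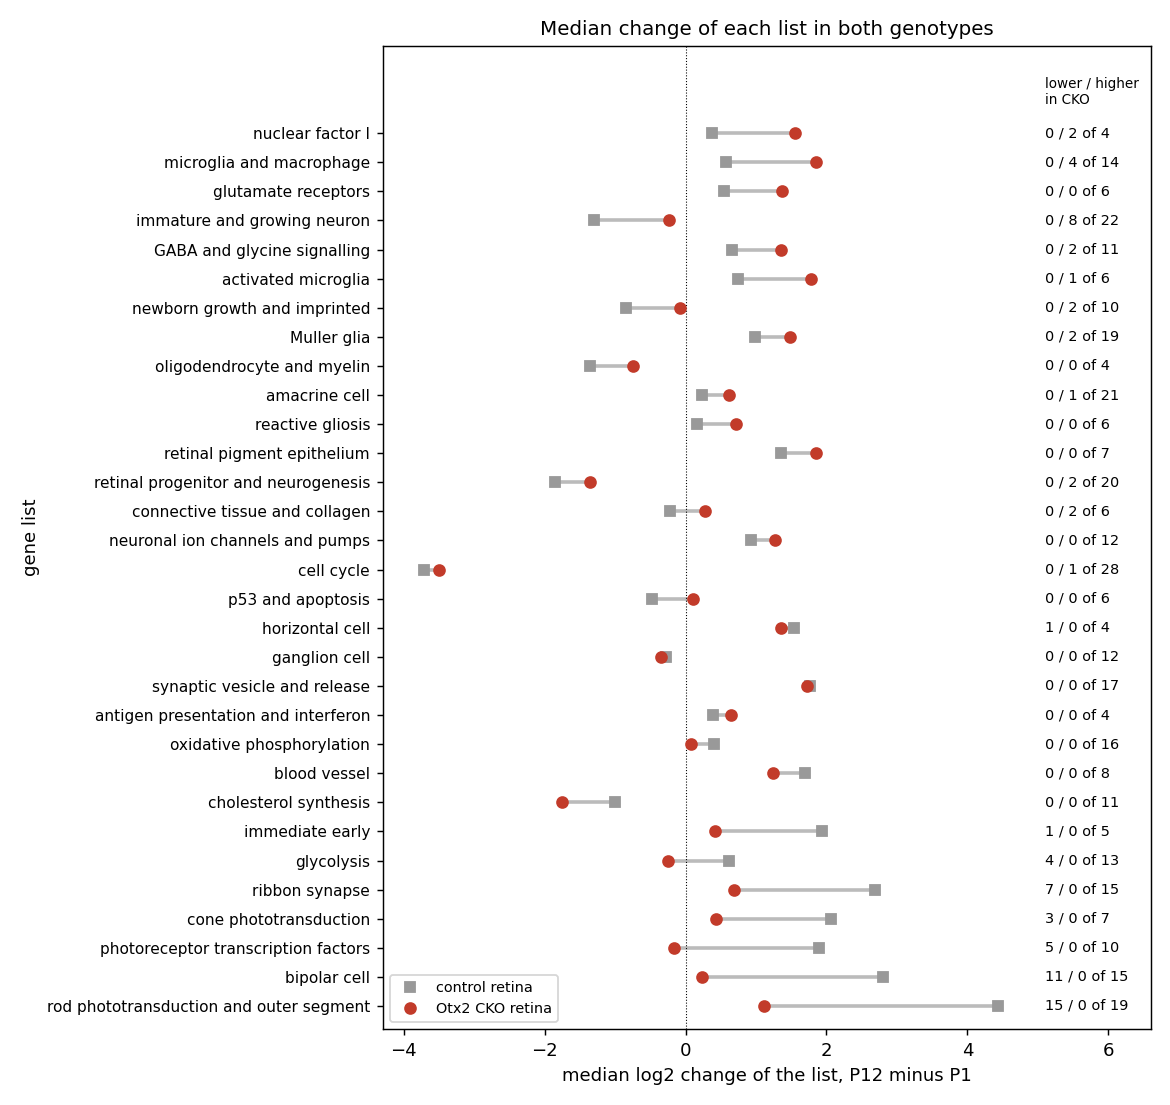
Median log2 change from P1 to P12 of each gene list in the control (grey squares) and in the *Otx2* CKO retina (red circles), for lists with at least 4 genes tested over all 12 arrays, in order of the median difference. The numbers at the right count the genes with a lower or higher change in the *Otx2* CKO than in the control retina past an adjusted p of 0.05, from 15 lower of 19 rod genes, 11 of which reached the signal limit only in control arrays, to 8 higher of 22 genes of immature neurons.

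Microglia, the resident phagocytes, were represented by 19 genes with a named probe set, of which 16 were tested, 13 of them only through P12. All 16 rose, with a median log2 change of 1.75, and the 13 could pass only as higher. The number was 13 without P12 *Otx2* CKO replicate 1. *Csf1r*, the receptor that keeps microglia alive, went from 122, 149 and 170.2 to 568, 1034 and 1007 (log2 change 2.40, SE 0.27, adjusted p = 0.000282). *C1qa*, of the complement protein C1q, went from 34.6, 56.9 and 68.8 to 219.8, 565 and 344 (log2 change 2.43, SE 0.34, adjusted p = 0.00102), the lysosomal protease gene *Ctss* from 93.3, 76.4 and 92.9 to 599, 680.3 and 503 (log2 change 2.55, SE 0.22, adjusted p = 5.52e-05) and *Lyz2*, lysozyme, from 9.03, 17.5 and 26.4 to 142, 256 and 199 (log2 change 2.67, SE 0.28, adjusted p = 0.000216). In 14 of the 16 the P12 signal was highest on replicate 2 and in 14 lowest on replicate 1. The resident marker *P2ry12* had a smaller rise (0.91, adjusted p = 0.0337).

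In the control retina 2 of 14 microglia genes rose, against 20.3% of all genes. A higher change without *Otx2* was found in 4 of the 14, against 1.5% of all genes. Both counts depend on the signal limit. In the fit of 6 arrays 13 of the 16 tested genes reached 50 only at P12. *Lyz2*, *Cd68* and *Cx3cr1* reached a mean of 50 only in the P12 *Otx2* CKO arrays. Such genes could hardly pass as higher in the control retina or with a lower change without *Otx2*. At P12 *C1qa* was at 202, 527 and 318 in the *Otx2* CKO and 50.5, 83.2 and 47.6 in the control arrays (difference 1.90, adjusted p = 0.0326), and *Lyz2* at 129, 235 and 182 and 35.3, 37.7 and 30.9 (difference 2.11, adjusted p = 0.0228). The genotypes did not overlap in either gene, yet the calls were lost in 8 and 6 of 12 fits without 1 array, with up to 0.0961 without P1 control replicate 3 and 0.0612 without P1 control replicate 2. *Fcrls* had a difference of 1.37 (adjusted p = 0.0152), and *Cd68*, a lysosomal protein, of 1.61 (adjusted p = 0.021), lost in 5 of those fits with up to 0.0659.

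Of 6 tested genes of activated microglia 5 rose, and 3 of the 6 were tested only through P12. *Cst7*, a cystatin of phagocytic microglia, went from 9.93, 1.65 and 0.8 to 38.8, 105 and 49 (log2 change 1.94, SE 0.34, adjusted p = 0.00356) and was at 1.88, 1.11 and 6.11 in the P12 control arrays (difference 2.07, adjusted p = 0.0134, and up to 0.0468 without 1 array). The lectin gene *Lgals3* had 41.9, 114 and 114 at P12 after 8.7, 8.88 and 23.6 (log2 change 1.78, SE 0.36, adjusted p = 0.00678), and its difference did not pass (adjusted p = 0.745). The chemokine genes *Ccl3* and *Ccl4* stayed at or under 28.4 on all 6 arrays. Of 4 tested genes of antigen presentation and interferon 2 rose, *B2m* (1.42, adjusted p = 0.00511) and *H2-D1* (0.86, adjusted p = 0.0238), and the count was 1 without P1 *Otx2* CKO replicate 2 or 3 or P12 *Otx2* CKO replicate 3.

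Some vessel genes rose in both genotypes. Of 6 tested 3 rose in the *Otx2* CKO retina, *Rgs5*, of pericytes, from 28.2, 19.4 and 21.9 to 508, 179 and 358 (log2 change 3.11, SE 0.34, adjusted p = 0.000249), *Flt1*, a VEGF receptor, from 1.5, 1.1 and 1.98 to 60.1, 87 and 64.2 (log2 change 2.29, SE 0.25, adjusted p = 0.000223), and *Esam*, of endothelial junctions (1.40). These 3 genes were tested only through P12 and could pass only as higher, and no other of the 6 passed. Among all genes tested 14.7% rose. None of 8 differences from the control retina passed, near the share of all genes (1.5% higher and 3.42% lower). Without P12 *Otx2* CKO replicate 2 the count was 2, and the defining endothelial markers *Pecam1* and *Cdh5* stayed at or under 36.8.

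Genes of tissue next to the retina also moved with age. Of 8 tested pigment epithelium genes, 6 of which reached 50 only at P12, 7 rose, and 4 rose without P12 *Otx2* CKO replicate 2, the array with the highest signal in each of the 7. *Ttr*, transthyretin, went from 23.3, 32.3 and 44 to 583, 1488 and 852 (log2 change 4.25, SE 0.34, adjusted p = 3.9e-05), *Dct*, of melanin synthesis, from 42.5, 61.4 and 54.3 to 303, 852 and 624 (log2 change 3.04, SE 0.35, adjusted p = 0.000323), and *Rpe65*, the isomerase of the visual cycle, from 1.5, 0.517 and 6.85 to 18.3, 115 and 46.5 (log2 change 1.80, SE 0.44, adjusted p = 0.0162). The summed signal of the 11 genes was 466 to 606 at P1 and 1430 to 3418 at P12, while that of 4 red blood cell genes was 13.4 to 22.9 and 15.4 to 22.1. *Ttr* rose by 4.12 in the control retina as well. None of 7 differences passed, near the share of all genes (1.5% higher and 3.42% lower). The part of pigment epithelium RNA in the changes of other genes was not tested.

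Of 11 lens genes only *Cryab* reached a mean of 50, from 3.2, 9.9 and 0.417 to 330.5, 718 and 578 (log2 change 4.73, SE 0.31, adjusted p = 1.54e-05). It encodes αB-crystallin, which glia and pigment epithelium also make. *Cryaa*, *Crybb2* and *Crygs*, which define lens, stayed at or under 20.4 on all 6 arrays. Of 5 connective tissue genes 1 rose, *Col12a1*, a fibril-associated collagen, from 3.53, 5.1 and 0.8 to 216, 63.8 and 71.2 (log2 change 2.62, SE 0.39, adjusted p = 0.00139), and 1 fell, *Fbln1* (−1.17, adjusted p = 0.0292, turned to 0.22 by spike scaling and lost without any of 4 of the 6 arrays). The rise of *Col12a1* was higher than in the control retina by 2.18 (adjusted p = 0.0245), lost in 5 of 12 fits without 1 array, with up to 0.0723 without P12 control replicate 3, whereas the collagens *Col1a1* and *Col3a1*, which define this tissue, stayed at or under 39.1. *Col12a1* reached a mean of 50 only in the P12 *Otx2* CKO arrays, so that only a higher change was likely to pass. *Mfap4*, of elastic fibres, had a difference of 2.75 (adjusted p = 0.012), but its change in the *Otx2* CKO retina did not pass (0.65, adjusted p = 0.338). In the control retina it had a log2 change of −2.12, to 0.913, 0.858 and 0.908 at P12. Of 4 oligodendrocyte genes 2 fell, *Olig2* from 137, 103 and 107 to 7.42, 22.7 and 12.2 (log2 change −2.15, SE 0.26, adjusted p = 0.000424), a factor that retinal progenitors also carry, and *Cnp* (−0.86, adjusted p = 0.0238), which spike scaling turned to 0.70 and which was lost without P1 *Otx2* CKO replicate 2 or 3. The myelin gene *Mbp* had 113, 166 and 122 at P1 and 108, 139.7 and 131 at P12 (log2 change −0.06, SE 0.23, adjusted p = 0.868), while *Mog* and *Mobp* stayed at or under 18.6.

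Genes of cholesterol synthesis fell. Of 11 tested genes 10 fell and none rose, with a median log2 change of −1.75, and at least 9 fell without any 1 array. *Hmgcs1*, the synthase that feeds the pathway, went from 2735, 1643 and 1740.2 to 473, 372 and 686 (log2 change −1.97, SE 0.26, adjusted p = 0.000685), *Idi1*, an isomerase of its middle, from 756, 304 and 383 to 125, 78.2 and 75.1 (log2 change −2.12, SE 0.34, adjusted p = 0.00207), and *Fdps*, the farnesyl synthase, from 969, 1129 and 804 to 165, 242 and 312 (log2 change −1.97, SE 0.25, adjusted p = 0.0006). *Insig1*, which senses sterols, went from 269, 257 and 283 to 31.8, 88 and 51.5 (log2 change −2.04, SE 0.29, adjusted p = 0.00102). Of the 11, 9 fell in the control retina, with a median of −1.0, and none of the differences passed. Relative to the hybridization controls none of the 11 was lower and 2 were higher, so that this fall holds against the other transcripts. CCAAT was found in 7 of 8 promoters of these genes (87.5%), against 34.5% of all.

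Glycolysis genes moved in both directions. *Aldoc*, the aldolase of glia, went from 89.3, 125 and 101 to 1509.6, 1714 and 1753 (log2 change 3.79, SE 0.20, adjusted p = 8.24e-06) and *Eno2*, the enolase of neurons, from 89.1, 119 and 127 to 692, 970.3 and 758 (log2 change 2.69, SE 0.23, adjusted p = 5.57e-05), and both rose in the control retina too (3.90 and 3.09). In total, 4 of 13 rose and 6 fell, none of which passed as lower under spike scaling, and the rises numbered 2 without P1 *Otx2* CKO replicate 1 or 3 or P12 *Otx2* CKO replicate 3. *Ldha*, the lactate dehydrogenase subunit that photoreceptors express strongly, fell in the *Otx2* CKO retina from 2189.8, 2042 and 2279.8 to 1225, 1399 and 1363 (log2 change −0.70, SE 0.12, adjusted p = 0.0027). In the control arrays it rose, from 2278, 1609 and 2163 to 3755, 3788 and 3581, and the difference was −1.59 (adjusted p = 0.000189). *Hk1*, the main hexokinase of brain, had a difference of −1.52 (adjusted p = 0.00251) and *Pkm*, pyruvate kinase, of −1.48 (adjusted p = 0.0326, lost in 8 of 12 fits without 1 array, with up to 0.0951 without P1 control replicate 2). The fall of *Pkm* in the *Otx2* CKO retina (−0.94) turned to 0.32 under spike scaling. A lower change than in the control retina was found in 4 of 13 glycolysis genes, against 3.42% of all genes.

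Of 16 tested genes of oxidative phosphorylation 1 rose, though all 16 passed as higher relative to the hybridization controls. It was *Atp5g3*, of the ATP synthase ring (0.46, adjusted p = 0.0139), whose change was −0.22 under median and −0.098 under trimmed mean scaling and whose call was lost without P1 *Otx2* CKO replicate 1 or 2. Changes ranged from −0.29 to 0.46. In the control retina 8 of 16 rose, and none of the 16 differences passed. Of 6 tested genes of p53 and apoptosis none passed, with changes from −0.77 to 0.37, while 6 of the list passed as higher under spike scaling. Of 4 immediate early genes 2 rose, *Egr1* from 29.5, 45.9 and 31.4 to 197, 278 and 244 (log2 change 2.31, SE 0.23, adjusted p = 0.00015) and *Fos* from 21.7, 22.4 and 18.6 to 71.2, 135 and 100.3 (log2 change 1.65, SE 0.25, adjusted p = 0.00164), both of which rose in the control retina as well (3.14 and 2.64). *Nr4a1*, a nuclear receptor of the same kind, had a lower change than in the control retina (−1.64, adjusted p = 0.0469), a call lost in 9 of 12 fits without 1 array, with up to 0.112.

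The last of the large rises were in *Lamp5*, a lysosome-associated protein of neurons, from 12.2, 14.9 and 33.7 to 740.3, 1081 and 932 (log2 change 4.72, SE 0.27, adjusted p = 1.01e-05), *Cav1*, caveolin of Müller glia and endothelium, from 17.3, 2.8 and 18.3 to 775, 567 and 725 (log2 change 4.65, SE 0.28, adjusted p = 1.06e-05), *Vcam1*, an adhesion molecule, from 7.11, 13 and 2.33 to 446, 488 and 351 (log2 change 4.26, SE 0.25, adjusted p = 1.01e-05), and *Htra1*, a secreted protease, from 22.5, 6.85 and 29.5 to 375, 666 and 578 (log2 change 3.98, SE 0.32, adjusted p = 3.9e-05). *Htra1* started lower in the *Otx2* CKO than in the control arrays at P1 (20.6, 6.41 and 27 against 107, 105 and 115) and its difference was 1.64 (adjusted p = 0.0387). Whether that call holds without 1 array was not tested. The differences of *Lamp5*, *Cav1* and *Vcam1* did not pass (adjusted p of 0.539, 0.47 and 0.131).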

How the data were processed

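Total RNA of whole retina was hybridized to Affymetrix Mouse Genome arrays, 3 for each age and genotype. The authors computed a linear signal intensity for each probe set with the array maker's software and deposited it for 45101 probe sets; the scaling target is not given in the sources used here. Probe sets of the AFFX controls, 64 in number, were not analysed as genes. Symbols came from the platform annotation, updated through Entrez IDs: 34958 probe sets had 1 gene, 932 several and 9211 none, and genes without a named probe set, some of the lists among them, are not reported here.

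The 6 *Otx2* CKO arrays were quantile normalized (12 arrays together for the comparison with control), signals were taken as log2(signal + 16), and probe sets with a mean normalized signal of at least 50 in 1 group or more were tested with limma 3.58.1 (lmFit, eBayes with trend, R 4.3.3) at a Benjamini-Hochberg adjusted p of 0.05. For the difference, the contrast was the change in the *Otx2* CKO minus the change in the control retina. A gene was read from its brightest probe set with 1 symbol. Genes named by rule were *Otx2* and the 10 largest called rises and falls among genes whose arrays did not overlap. Named as well were the 10 largest called differences in each direction among genes whose changes did not overlap between the genotypes. In these the arrays of the 2 ages could overlap, as in *Nfib*. Each list added up to 4 genes with the largest called change (the 2 brightest where fewer than 2 passed). It also added up to 3 genes with the largest called difference. Other named genes were chosen after their values were seen. Members and the 33 lists were chosen with earlier results of these data known. Lists were described by counts beside those of all genes tested and were given no test of their own. Alternatives were other scalings, offsets, signal limits, array weights, no trend, a replicate block and leaving out each array. The procedure was tested on simulated data. The number of arrays limits the precision. Promoters are from the RefSeq annotation of GRCm38.p6.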

Additional observations from a re-analysis of the deposited data

Results flagged for a closer look

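Among the genes named by rule for their change within the *Otx2* CKO retina, 18 had a change that differed from that in the control retina by limma's test of the difference itself over 12 arrays. Genes named for their difference, such as *Cd24a*, *Ldha* and *Pax6*, are given above. Each value here is the log2 change in the *Otx2* CKO minus the log2 change in the control retina. Genes of photoreceptors and bipolar cells had lower changes, with −4.97 for *Gnat1*, −3.84 for *Pde6g*, −3.50 for *Rcvrn* and −3.19 for *Isl1*. *Otx2* itself had −1.70, *Calb1* −1.42 and the glycolytic gene *Pkm* −1.48.

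Higher changes were 3.01 for *Nfib* and 2.70 for *Nfix* among the nuclear factor I genes and 2.99 for *Igfbpl1* of newborn neurons. Those of genes that glia or microglia express were 2.14 for *Apoe*, 2.11 for *Lyz2*, 2.07 for *Cst7* and 1.90 for *C1qa*. *Col12a1* had 2.18, *Lgr5* 2.14, *Glra2* 2.0 and *Htra1* 1.64. The calls of *Nfib*, *Lyz2*, *C1qa*, *Col12a1*, *Glra2* and *Pkm* were each lost in at least 5 of the 12 fits that left out 1 array. For *Htra1*, *Isl1*, *Lgr5*, *Pde6g* and *Rcvrn* the difference was not tested in those fits.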

How the results depend on the processing

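Scaling set the direction of the weaker falls. Probe sets higher and lower at P12 in the *Otx2* CKO retina numbered 17131 and 206 (98.8% higher) relative to the hybridization controls and 19567 and 125 (99.4%) as deposited, against 53.2% higher after quantile normalization and 44.7% after median scaling. Those with a higher and a lower change than in the control retina numbered 663 and 386 as deposited (63.2% higher, against 29.1%) and 102 and 292 with median scaling. Without a signal limit 144 had a higher change. Array weights gave 4564 and 4747 in the *Otx2* CKO retina and 2308 and 2067 (52.8% higher) for the difference. A 2-fold limit with the test gave 1522 and 1219, and a 2-fold limit without a test 1358 and 1383 for the difference. Leaving out 1 array gave 1384 to 2280 higher and 1112 to 2080 lower in the *Otx2* CKO retina, and 111 to 351 higher and 393 to 655 lower changes than in the control retina. With the experiment number as a replicate block the counts were 3868 and 3973, and 597 and 850 for the difference (41.3% higher). The numbers share no source that the labels give. Deviations from the group means of same-numbered arrays correlated at 0.637, 0.631 and 0.00183. P1 replicate 1 with P12 replicate 2 gave −0.671, and P1 replicate 2 with P12 replicate 1 gave −0.601. Arrays numbered 1 and 2 thus deviated alike at both ages, for a reason that was not tested. P12 replicate 3 correlated best with P1 replicate 2 (0.0331). The main fit did not treat the samples as pairs, since no shared source is given.

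Single changes from P1 to P12 that turned sign were, relative to the hybridization controls, *Irx6* 0.32, *Fbln1* 0.22, *Hk2* 0.16, *Pkm* 0.32, *Tubb3* 0.12, *Sox11* 0.34, *Gap43* 0.60, *Cnp* 0.70 and *Bcl2l11* 1.60. As deposited they were *Otx2* 0.27, *Irx5* 0.045, *Isl1* 0.16, *Irx6* 0.79, *Idi1* 8.90e-05, *Insig1* 0.020, *Fdps* 0.17, *Fbln1* 0.69, *Hk2* 0.68, *Pkm* 0.93, *Tubb3* 0.72, *Sox11* 0.94, *Gap43* 1.20, *Plagl1* 0.41, *Cnp* 1.29 and *Bcl2l11* 2.17. Median scaling gave *Atp5g3* −0.22 and *Atp5b* −0.34, and trimmed mean scaling −0.098 and −0.22. Array weights gave *Bcl2l11* 0.13 and *Mdm2* −0.13. The median of the p53 list was −0.034 with the mean over probe sets of a gene. Leaving out 1 array gave *Mdm2* −0.11 to 0.46 and *Bcl2l11* −0.32 to 0.42. The cause of these turns was not tested beyond the shift of all signals that the scalings themselves make.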
